A study of Homo sapiens with 6 samples.

Results

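The ABC transporter family was followed in HepG2, an established human hepatocellular carcinoma cell line, by RNA sequencing of cells given FTO siRNA or control siRNA. The members were all protein-coding genes whose GENCODE symbol is ABC, a letter from A to G and a number. There were 45 of them among the 60483 genes of the count files, and 1 further gene with such a symbol, the pseudogene ABCC13, was left out. Each group held 3 libraries of total RNA. Every culture carried an siRNA and was grown in the same serum-containing medium at passage 16 to 19, as far as the labels say. FTO removes the methyl group of N6-methyladenosine from RNA, and the series asked which genes it regulates in this cancer. HepG2 is a single cell line, and no label states whether libraries of a group stem from separate cultures. The p-values measure the spread among the 6 libraries, and that spread may be technical.

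ABC transporters are membrane proteins that bind and split ATP to move a substrate across a membrane. In hepatocytes they export bile acids, phospholipid, cholesterol, conjugated drugs and bilirubin, and they load high-density lipoprotein. Others work inside the cell, in peroxisomes (subfamily D), mitochondria and lysosomes (part of subfamily B). Subfamilies E and F have the ATP-binding domains but no membrane part, and act on ribosomes.

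The sequence searched for in the members was the Walker A loop, which holds the phosphates of ATP. A search of the longest coding transcript of each member in GENCODE 29 found it in 44 of 45 members. It occurred at least 2 times in 31 of them and 1 time in 13, all of subfamilies B, D and G, whose short members must join a partner protein to work. All 12 members of subfamily A and all 11 of subfamily C had at least 2, and all 4 of subfamily D had 1. ABCG8, which works only with ABCG5, had no match to the spelling searched. The coding DNA of the loop is shown for the members called between the groups, for the mitochondrial ABCB10 and for the ribosomal ABCE1, each 24 bases long with the last 3 codons of the loop in capitals.
ABCD3: ggtccaaatggctgcGGAAAGAGT
ABCA4, first loop: ggccacaatggagctGGGAAAACC
ABCA4, second loop: ggagtgaatggtgccGGCAAAACA
ABCB10: ggcccaagtggttctGGCAAATCA
ABCE1, first loop: ggaactaatggtattGGAAAGTCA
ABCE1, second loop: ggggaaaatggaacgGGTAAAACG

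Total counts lay between 15713279 and 18390953 per library, and 3 counts in a library correspond to 0.153 to 0.19 CPM, the unit used below for counts scaled to library size with TMM factors. This floor covers counting error only. FTO itself was at 11.2, 14.5 and 5.21 CPM in FTO siRNA 1, 2 and 3, against 40.8, 37.96 and 38.8 CPM in controls 1, 2 and 3. FTO fell by 1.93 ± 0.32 in log2 units (SE, edgeR adjusted p = 0.00932). The library FTO siRNA 3 had the least FTO mRNA, and it gave the highest or the lowest of the 6 values for 57.9% of the 15025 genes tested and for 21 of the 34 ABC genes tested. FTO siRNA 1 did so for 48.8% of all genes tested and for 16 of the 34, and the other 4 libraries for 18.02% to 29.6% of all genes. Since leaving out FTO siRNA 3 changed which ABC genes passed, values without it are given for members where it moved the fold change. All 8 hepatocyte markers checked were measured, with a summed level of 15401 to 26649 CPM after FTO siRNA and of 22521 to 32092 CPM in controls. None passed the test, but all 8 log2 fold changes were below 0, from -1.40 to -0.01 with a median of -0.36. APOB had 1405, 2381 and 4062 CPM after FTO siRNA and 8179.6, 7419 and 5071 CPM in controls (edgeR adjusted p = 0.065). HNF4A averaged 315 CPM after FTO siRNA and 369.5 CPM in controls (edgeR adjusted p = 0.306). For both genes the groups did not overlap. Some markers of other cells differed between the groups. Of 7 tested immune markers 5 were called higher after FTO siRNA, and of 7 tested fibroblast markers 3 were, where 7.53% of all genes tested were. The other tested markers of these lists did not pass. The summed level was 79.1 to 112 CPM after FTO siRNA and 51.5 to 102 CPM in controls for the immune list, and 277 to 613 against 117 to 203 CPM for the fibroblast list. LYZ made up most of the immune sum, and averaged 71.7 CPM after FTO siRNA and 72.8 CPM in controls. TAGLN made up most of the highest fibroblast sum, that of FTO siRNA 1. It had 464, 284 and 90.03 CPM in FTO siRNA 1, 2 and 3, against 34.3, 55.3 and 91.3 CPM in controls 1, 2 and 3, with overlap. The macrophage list summed to 2.22 to 4.14 CPM after FTO siRNA and 0.7603 to 1.401 CPM in controls, with CD163 and C1QA at 0 in all libraries. Of 5 tested biliary markers 1 was higher after FTO siRNA, and the 1 tested endothelial marker did not pass. The part of these transcripts in the ABC values was not tested.

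After FTO siRNA 1 ABC gene rose, ABCA4, and 1 fell, ABCD3, which carries fatty acids and bile acid precursors into peroxisomes. Another 32 tested members did not pass (quasi-likelihood test of edgeR, with p adjusted by Benjamini-Hochberg over all genes and a threshold of 0.05). Of all genes tested 7.53% were called higher and 3.83% lower, or 11.4% in either direction, and the 2 of 34 ABC genes amount to 5.88%. At an unadjusted p of 0.05, 7 members passed, or 20.6%, where 27.9% of all genes tested did. The other 11 members had too few counts to test. The groups did not overlap for 9 of the 34 tested members, 3 of them higher and 6 lower, or 26.5%, where 36.5% of all tested genes did not overlap. The median log2 fold change, FTO siRNA over control siRNA, was 0.08 over the tested members and 0.04 over all genes tested. Members that were tested only because of counts in a single group would have had to differ, so these shares describe the tested members and not the family.

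**Figure D1:**
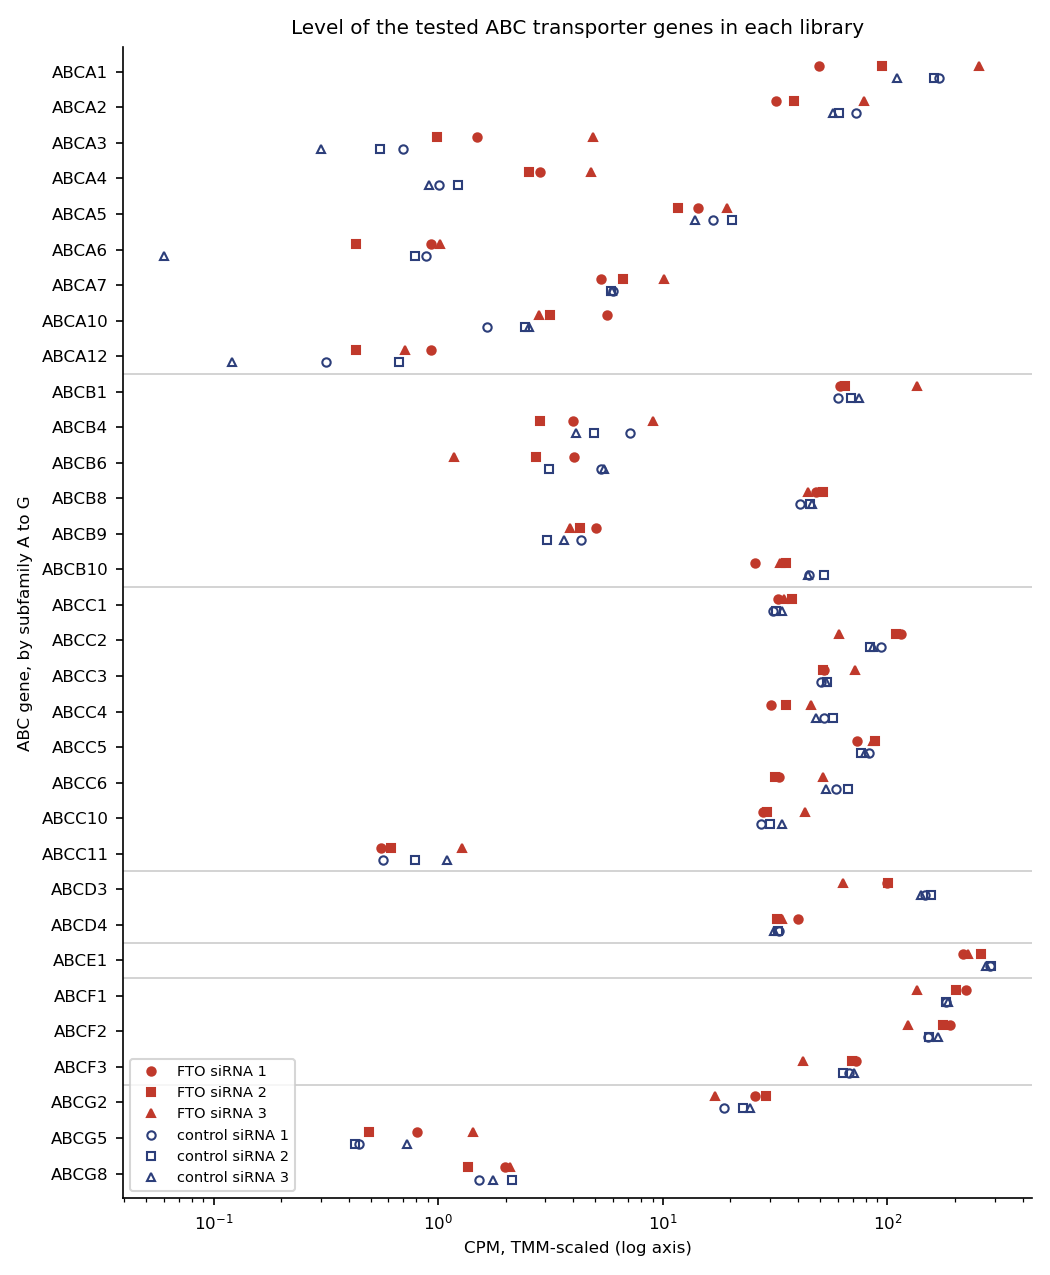
Level of the tested ABC genes reported here in every library, in TMM-scaled CPM on a log axis, grouped by subfamily. Filled red symbols are FTO siRNA libraries and open blue symbols below them controls; ABCD3 and ABCB10 lie wholly left of the controls, and the red triangle of FTO siRNA 3 often lies away from the other red symbols.

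Levels between genes are compared per kilobase of the longest transcript. The ribosome-acting members led in both groups. ABCE1 had 60.03 ± 5.66 CPM per kb after FTO siRNA and 72.1 ± 1.796 in controls (SD, n = 3 each), ABCF1 53.8 ± 13.1 and 52.8 ± 0.689, and ABCF2 46.1 ± 9.72 and 44.4 ± 2.54. In FTO siRNA libraries the next were ABCF3 at 21.6 ± 5.88, ABCD3 at 20.1 ± 4.86, the drug efflux pump ABCB1 at 18.3 ± 8.86 and ABCC2, which exports bilirubin conjugates into bile, at 16.3 ± 5.104 CPM per kb. In the controls ABCD3, at 33.9 ± 1.69 CPM per kb, stood above ABCF3, at 23.7 ± 1.35. Each of those 4 levels after FTO siRNA lay within the SD of its neighbour in the order. The order depended on the length used. Per kb of merged exons, ABCF1 had 41.4, ABCF2 39.1 and ABCE1 37.6 CPM per kb after FTO siRNA. By that length ABCB1 had 15.1, ABCC2 12.1, ABCF3 and ABCA1 11.8 each, and ABCD3 11.6. In controls ABCE1 still led by that length, at 45.1, before ABCF1 at 40.6 and ABCF2 at 37.7. The bile salt export pump ABCB11, the main bile acid exporter of hepatocytes, was nearly absent, with 38 counts over the 3 FTO siRNA libraries and 33 over the 3 controls.

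By subfamily, the summed level per kb was carried by the ABCF genes, with 33.9% of the family total after FTO siRNA and 31.4% in controls, followed after FTO siRNA by ABCC and then ABCE1 and in controls by ABCE1 and then ABCC. ABCC took 18.2% after FTO siRNA and 17.6% in controls, and ABCE1 16.7% after FTO siRNA and 18.7% in controls. Subfamily D took 10.6% after FTO siRNA and 12.9% in controls. Its summed level was 41.5, 38.4 and 34.5 CPM per kb in FTO siRNA 1, 2 and 3, against 50.1, 51.3 and 47.5 in controls 1, 2 and 3. Subfamily A summed to 13.04, 17.3 and 40.2 CPM per kb after FTO siRNA, a range that takes in the controls at 28.7, 27.04 and 20.7. The whole family summed to 359.6, 367 and 349 CPM per kb after FTO siRNA and to 385, 389 and 382 in controls.

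**Figure D2:**
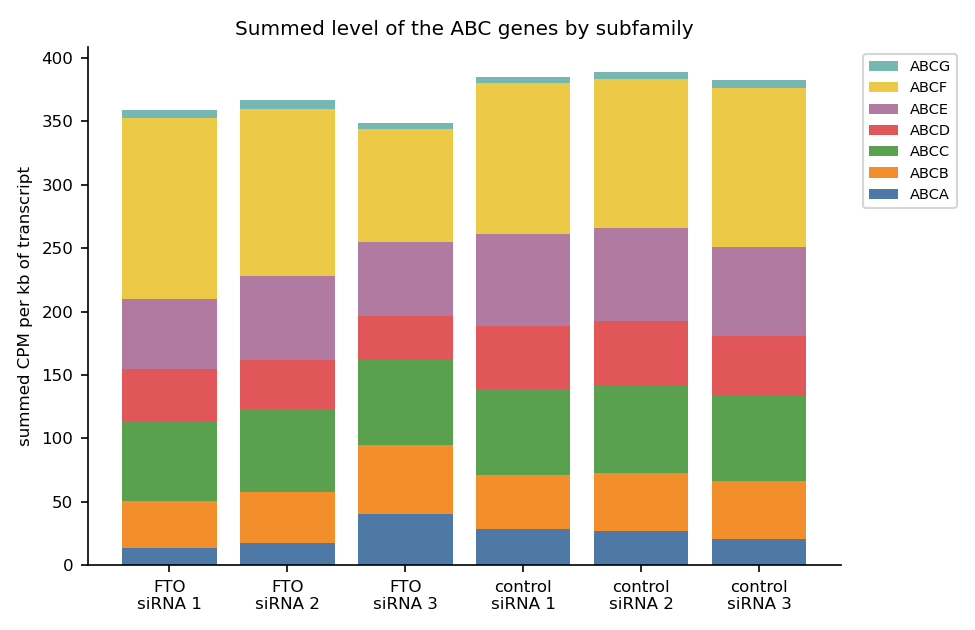
Summed level of the 45 ABC genes in each library, in CPM per kb of the longest transcript, stacked by subfamily with ABCA at the bottom. The 3 FTO siRNA bars end between 349 and 367 and the 3 control bars between 382 and 389; the ABCA and ABCB parts are tallest in FTO siRNA 3, where the ABCF part is shortest.

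Subfamily D sits in the peroxisome, apart from ABCD4, a lysosomal protein of cobalamin transport. ABCD3 (ENSG00000117528, chromosome 1) had 99.9, 100.2 and 63.3 CPM in FTO siRNA 1, 2 and 3, against 147, 156 and 141 CPM in controls 1, 2 and 3. The highest FTO siRNA library was below the lowest control. In bulk RNA fewer cells of a type and less RNA per cell cannot be told apart. ABCD3 fell by 0.75 ± 0.19 in log2 units (SE; 95% interval -1.19 to -0.31; edgeR adjusted p = 0.0408), to 59.4% of the control level. Without FTO siRNA 3, its lowest library, ABCD3 fell by 0.59 ± 0.11 (adjusted p = 0.00411). The call was lost when any of the other 5 libraries was left out, with adjusted p from 0.0501 to 0.158, and with the replicate number as a block (adjusted p = 0.054). ABCD4 averaged 35.3 ± 4.17 CPM after FTO siRNA and 32.2 ± 0.803 CPM in controls (adjusted p = 0.602 by edgeR). ABCD2, a peroxisomal transporter of fatty acids, had 16 counts over the FTO siRNA libraries and 13 over the controls and was not tested.

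The 250 bases before the ABCD3 start, from RefSeq on GRCh38.p14 (chr1:94418139-94418388, plus strand), are shown because ABCD3 was the member that fell. They were 74.4% G and C, and held 4 copies of the GC box GGGCGG on either strand, here in capitals. That motif occurs in 42.6% of all promoter windows of this length and in 47.2% of the 53 windows of the 35 members that have them.
ABCD3 promoter: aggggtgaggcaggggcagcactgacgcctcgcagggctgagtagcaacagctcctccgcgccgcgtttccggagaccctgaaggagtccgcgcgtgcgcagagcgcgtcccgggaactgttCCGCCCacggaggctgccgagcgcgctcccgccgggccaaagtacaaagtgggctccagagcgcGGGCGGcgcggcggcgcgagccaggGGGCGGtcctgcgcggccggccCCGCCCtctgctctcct

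Around ABCD3, 15 genes of peroxisomal import and peroxisomal fatty acid oxidation were tested, and 1 fell and none rose. By comparison, 3.83% of all genes tested were called lower and 7.53% higher. The gene that fell was HSD17B4, the bifunctional enzyme that oxidises the fatty acids and bile acid precursors imported by ABCD3. HSD17B4 had 148, 144 and 130.3 CPM in FTO siRNA libraries, against 212, 220.0 and 183 CPM in controls, without overlap. Its fall was 0.54 ± 0.14 on the log2 scale (edgeR adjusted p = 0.0421), and the call was lost under 7 of 14 alternatives, with adjusted p up to 0.198. The median log2 fold change over the 15 genes was -0.13. Levels of the carnitine acyltransferase CROT were 7.68, 6.3 and 4.29 CPM after FTO siRNA and 9.95, 12.6 and 9.298 CPM in controls (adjusted p = 0.0776 by edgeR).

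Subfamily A moves lipids across or out of membranes. Of 12 members 9 were tested, and ABCA4 rose while 8 did not pass. ABCA4 (ENSG00000198691, chromosome 1), the retinoid flippase of photoreceptors, had 2.85, 2.53 and 4.803 CPM in FTO siRNA 1, 2 and 3, against 1.01, 1.22 and 0.906 CPM in controls 1, 2 and 3. All FTO siRNA libraries lay above all controls, on 46, 41 and 94 counts against 16, 20 and 15. It rose by 1.70 ± 0.35 on the log2 scale (95% interval 0.92 to 2.49, edgeR adjusted p = 0.0184), or to 325% of the control level. Without FTO siRNA 3 it rose by 1.33 ± 0.28 (adjusted p = 0.00847). The call was lost without control 1 (adjusted p = 0.1), control 2 (0.0706) or control 3 (0.0804). No other gene of the annotation overlaps ABCA4, and none of its 50-base words occurs in another gene.

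ABCA1, which hands cholesterol and phospholipid to apolipoprotein A-I, was the member with the widest spread among the well-counted ones. It had 49.8, 94.6 and 256 CPM in FTO siRNA 1, 2 and 3, against 169, 161 and 110.1 CPM in controls 1, 2 and 3. FTO siRNA 1 and 2 lay below every control and FTO siRNA 3 above every control, at 3.55 times the mean of the other two. With all libraries the log2 fold change was -0.14 ± 0.50 (95% interval -1.28 to 1.00, adjusted p = 0.8901 by edgeR). Without FTO siRNA 3 ABCA1 fell by 1.05 ± 0.27 (adjusted p = 0.0175). ABCA2, a lysosomal and endosomal lipid transporter, was also highest in FTO siRNA 3. Its levels were 31.9, 38.2 and 78.99 CPM after FTO siRNA and 72.5, 60.7 and 57.4 CPM in controls (log2 fold change -0.35 ± 0.31, adjusted p = 0.505). Without FTO siRNA 3 it fell by 0.88 ± 0.15 (adjusted p = 0.00304).

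The 250 bases before the ABCA1 start (RefSeq, GRCh38.p14, chr9:104928156-104928405, minus strand, printed in the direction of transcription) are shown for this most divided member. Capitals mark the E-box CACGTG and the TATA box TATAAA, with 1 copy each. The GC box GGGCGG, also present in this window, was left in lower case. In windows of this length on either strand, the E-box occurred in 6.34% of all genes' windows and in 9 of the 53 member windows, and the TATA box in 10.7% and in 6 of the 53.
ABCA1 promoter: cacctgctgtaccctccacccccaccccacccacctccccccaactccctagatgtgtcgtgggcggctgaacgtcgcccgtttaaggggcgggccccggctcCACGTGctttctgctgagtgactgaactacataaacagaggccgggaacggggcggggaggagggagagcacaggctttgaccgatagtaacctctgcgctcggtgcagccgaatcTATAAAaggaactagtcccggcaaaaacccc

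**Figure D3:**
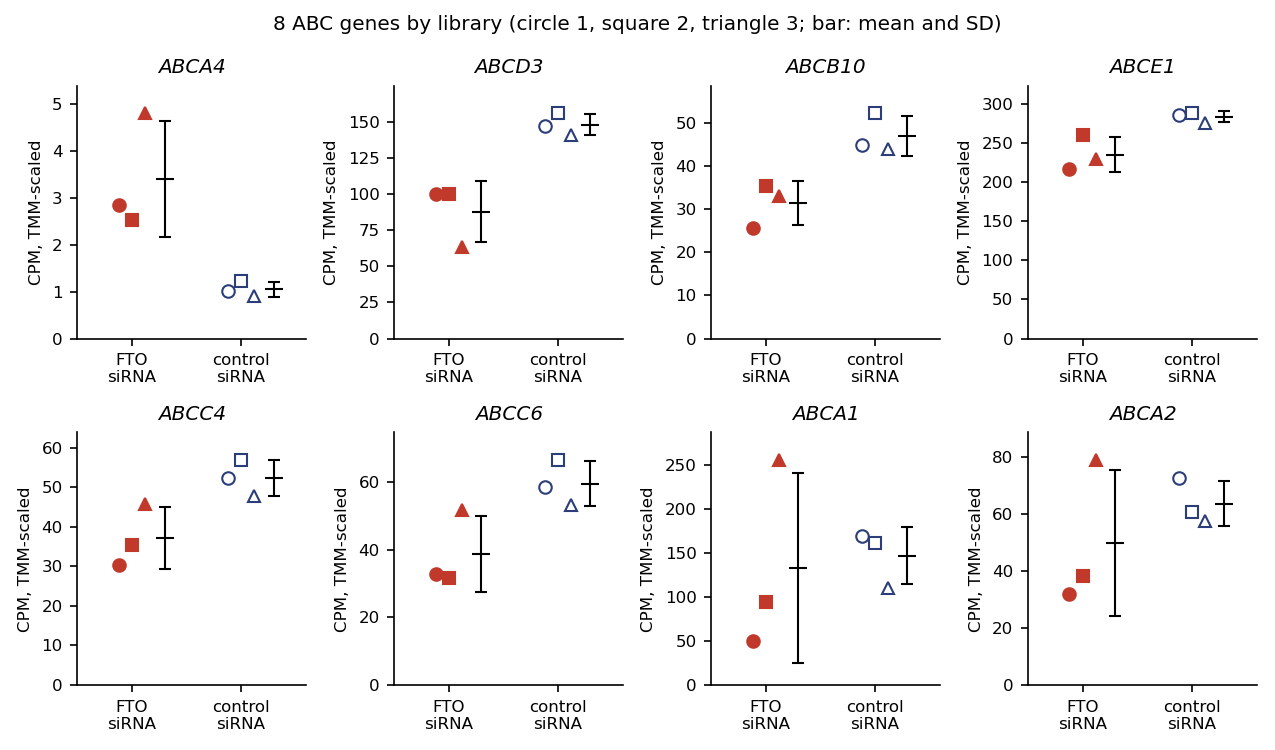
CPM of 8 ABC genes by library, FTO siRNA at the left and control siRNA at the right of each panel, with the mean and SD of 3 libraries beside the points. ABCA4 lies above the controls and ABCD3, ABCB10, ABCE1, ABCC4 and ABCC6 below them in all 3 FTO siRNA libraries; ABCA1 and ABCA2 run from below to above the controls.

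Other tested members of subfamily A were lower in level. ABCA3, the surfactant lipid transporter of the lung, had 1.49, 0.988 and 4.91 CPM after FTO siRNA, against 0.697, 0.548 and 0.302 CPM in controls. The groups did not overlap, and the log2 fold change of 2.28 ± 0.69 did not pass (edgeR adjusted p = 0.06802; 0.0561 without FTO siRNA 3). ABCA3 was called higher without a filter on low counts (adjusted p = 0.0479), by DESeq2 (0.0124) and without FTO siRNA 2 (0.0479). ABCA5, ABCA6, ABCA8, ABCA9 and ABCA10 lie next to each other on chromosome 17. ABCA10 had 5.64, 3.15 and 2.81 CPM after FTO siRNA and 1.65, 2.44 and 2.54 CPM in controls (edgeR adjusted p = 0.1698). Its adjusted p was 0.0411 without FTO siRNA 3 and 0.421 without FTO siRNA 1, its highest library. ABCA5, whose annotation overlaps that of ABCA10, averaged 15.1 ± 3.85 CPM after FTO siRNA and 17.01 ± 3.21 CPM in controls (log2 fold change -0.16, adjusted p = 0.689 by edgeR; -0.41 without FTO siRNA 3). ABCA6 and ABCA12 had at most 1.02 CPM in any library and did not pass (log2 fold change 0.48 and 0.90; 0.21 and 0.84 without FTO siRNA 3), and ABCA7 averaged 7.36 ± 2.44 CPM after FTO siRNA and 5.93 ± 0.0856 CPM in controls (log2 fold change 0.32, adjusted p = 0.468; -0.01 without FTO siRNA 3).

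Of 15 tested genes of cholesterol efflux and of the oxysterol receptors and their targets, 3 were called, 2 higher and 1 lower. Among all genes tested 11.4% were called. The median log2 fold change over the 15 genes was 0.05. PLTP, the phospholipid transfer protein of plasma, had 35.2, 34.9 and 38.5 CPM after FTO siRNA, against 21.9, 17.1 and 15.8 CPM in controls (adjusted p = 0.0108, edgeR). It was called in all alternatives but those without control 2 or control 3 (up to 0.0678). CAV1, the coat protein of caveolae, had 91.97, 90.7 and 61.5 CPM after FTO siRNA, against 19.5, 25.8 and 36.2 CPM in controls (adjusted p = 0.00859; 0.0537 without control 2). RXRA, the shared partner of the oxysterol receptors, averaged 69.5 ± 8.56 CPM after FTO siRNA and 106 ± 14.9 CPM in controls (adjusted p = 0.0461, lost under 10 of 14 alternatives). The oxysterol receptor NR1H2 had 75.9, 63.8 and 50.5 CPM after FTO siRNA and 40.04, 42.95 and 44.6 CPM in controls, without overlap, and did not pass (adjusted p = 0.0674 by edgeR). Its relative NR1H3 had 30.9, 26.9 and 15.6 CPM after FTO siRNA and 30.8, 27.2 and 25.4 CPM in controls, lowest in the library where ABCA1 was highest (adjusted p = 0.672 by edgeR). APOA1, the acceptor of ABCA1's lipid, did not pass (log2 fold change -0.52 ± 0.24, adjusted p = 0.195).

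Subfamily B joins drug and bile transporters of the cell surface to mitochondrial and lysosomal members. None of 7 tested members passed. ABCB1 had 61.2, 64.9 and 136 CPM in FTO siRNA 1, 2 and 3, against 60.1, 68.7 and 74.7 CPM in controls 1, 2 and 3. FTO siRNA 1 and 2 lay in the control range and FTO siRNA 3 above it (log2 fold change 0.37 ± 0.30, adjusted p = 0.459; -0.13 without FTO siRNA 3). ABCB4, the phosphatidylcholine exporter of bile and the neighbour of ABCB1 on chromosome 7, was also highest in FTO siRNA 3, with 3.97, 2.84 and 9.04 CPM after FTO siRNA and 7.16, 4.94 and 4.11 CPM in controls. Its log2 fold change was -0.01 ± 0.42 with all libraries (adjusted p = 0.988 by edgeR) and -0.69 ± 0.29 without FTO siRNA 3 (adjusted p = 0.095). ABCB1 and ABCB4 share 2.52% and 2.82% of their 50-base words, so a few reads may be split between them.

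Mitochondrial members of subfamily B serve haem and iron-sulfur metabolism. ABCB10, an inner membrane protein linked to haem synthesis, had 25.7, 35.4 and 33.2 CPM after FTO siRNA, against 44.9, 52.4 and 44.1 CPM in controls. All FTO siRNA libraries lay below all controls. Its log2 fold change of -0.58 ± 0.17 (95% interval -0.97 to -0.20) just missed the threshold (edgeR adjusted p = 0.0594). Of its 50-base words 4.62% occur in other genes, the most in the pseudogene ABCB10P4. Without FTO siRNA 3 ABCB10 fell by 0.65 ± 0.16 (adjusted p = 0.0165), and DESeq2 called it lower with all libraries (adjusted p = 0.0277). ABCB8 averaged 48.1 ± 3.64 CPM after FTO siRNA and 43.96 ± 2.76 CPM in controls (adjusted p = 0.5897 by edgeR). The lysosomal peptide transporter ABCB9 averaged 4.39 ± 0.579 CPM after FTO siRNA and 3.66 ± 0.632 CPM in controls (adjusted p = 0.516 by edgeR). ABCB6, a porphyrin transporter, had 4.03, 2.72 and 1.18 CPM after FTO siRNA and 5.32, 3.11 and 5.49 CPM in controls, with overlap (log2 fold change -0.83, adjusted p = 0.2403; -0.49 without FTO siRNA 3). Of 18 tested genes of iron-sulfur and haem synthesis none passed by edgeR, and their median log2 fold change was -0.06; the smallest p-values belonged to the haem enzymes ALAD (-0.53 ± 0.18, adjusted p = 0.0946) and CPOX (-0.65 ± 0.23, adjusted p = 0.105).

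**Figure D4:**
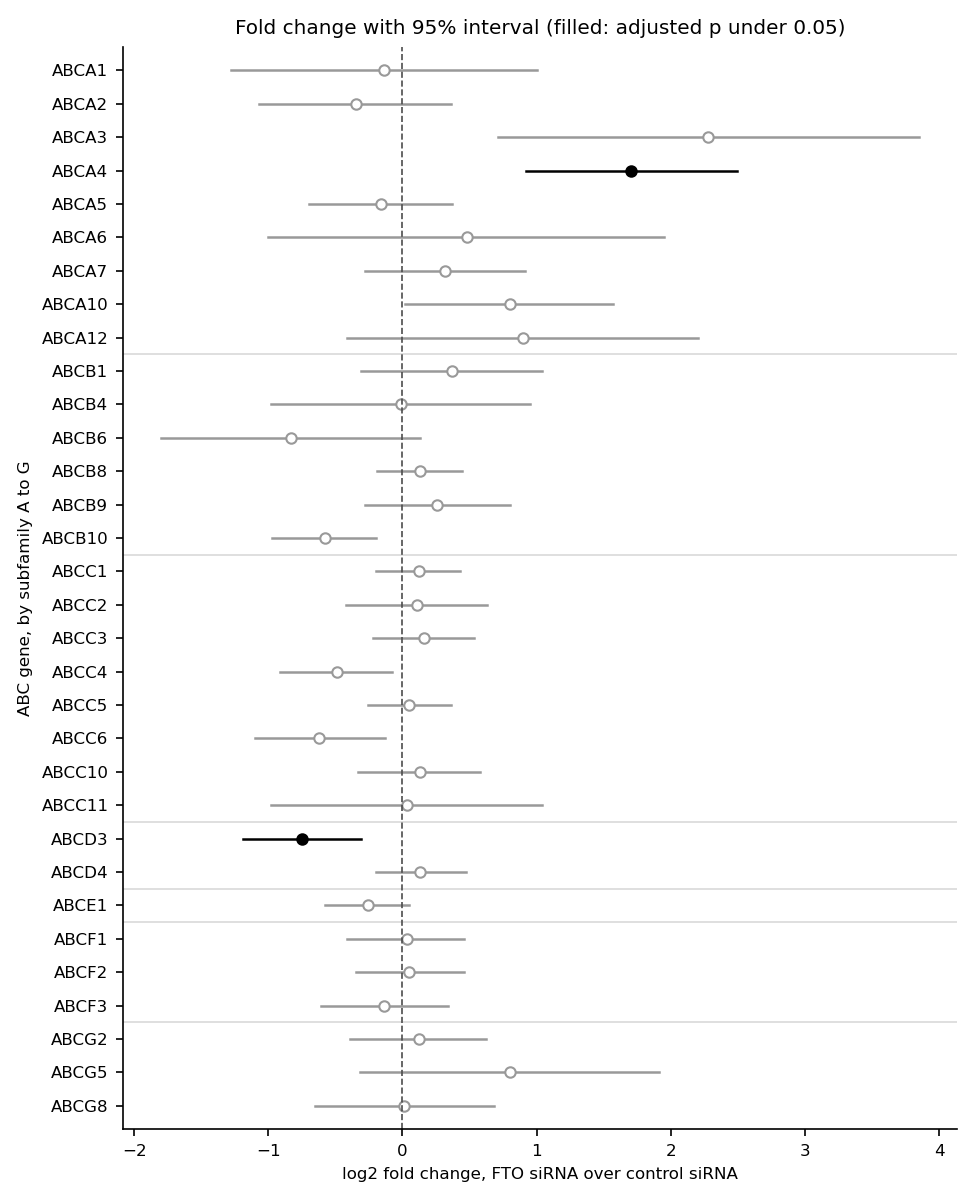
Log2 fold change, FTO siRNA over control siRNA, of the tested ABC genes reported here with its 95% interval from edgeR. Filled black points, ABCA4 at 1.70 and ABCD3 at -0.75, passed an adjusted p of 0.05; the interval of ABCA1 runs from -1.28 to 1.00 and that of ABCA12 from -0.41 to 2.20.

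Subfamily C exports organic anions, drug conjugates and nucleotides. None of 8 tested members passed with all libraries. ABCC2 had 115, 109 and 60.9 CPM in FTO siRNA 1, 2 and 3, against 93.9, 83.8 and 86.1 CPM in controls 1, 2 and 3. FTO siRNA 1 and 2 lay above every control and FTO siRNA 3 below (log2 fold change 0.11 ± 0.23, adjusted p = 0.801; 0.32 ± 0.11 without FTO siRNA 3, adjusted p = 0.0466). The log2 fold change of ABCC2 was -0.07 without FTO siRNA 1 and -0.03 without FTO siRNA 2. Its basolateral counterpart ABCC3 averaged 58.5 ± 11.2 CPM after FTO siRNA and 52.6 ± 1.92 CPM in controls (log2 fold change 0.16; -0.04 without FTO siRNA 3), and ABCC5, an exporter of cyclic nucleotides, 82.3 ± 8.09 and 79.5 ± 3.36 CPM. For ABCC5 the 95% interval of the log2 fold change ran from -0.26 to 0.36 and for ABCC1, the glutathione conjugate pump, from -0.20 to 0.43. ABCC10 had a log2 fold change of 0.13 with all libraries and -0.13 without FTO siRNA 3, and ABCC11, with at most 1.28 CPM in a library, 0.03 and -0.50. ABCC11 overlaps 2 genes of the annotation, LONP2 among them, and the higher counted had 6873 counts over the 6 libraries.

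ABCC4 and ABCC6 were the tested members of subfamily C whose groups did not overlap. ABCC4, which exports bile acids and cyclic nucleotides at the basolateral side, had 30.4, 35.3 and 45.8 CPM after FTO siRNA and 52.3, 57.03 and 47.9 CPM in controls. With all libraries its log2 fold change was -0.49 ± 0.18 (adjusted p = 0.116 by edgeR), and without FTO siRNA 3 it fell by 0.70 ± 0.13 (adjusted p = 0.00547). ABCC6, needed for ATP release and mineral balance, had 32.8, 31.7 and 51.8 CPM after FTO siRNA and 58.7, 66.7 and 53.3 CPM in controls. Here the log2 fold change was -0.62 ± 0.21 (adjusted p = 0.0979), and ABCC6 fell by 0.91 ± 0.13 without FTO siRNA 3 (adjusted p = 0.00165) and by 0.67 in DESeq2 with all libraries (adjusted p = 0.0413). ABCC6 is uncertain, since 15.1% of its 50-base words occur in other genes. Its copy ABCC6P1 had 376, 333 and 401 counts after FTO siRNA and 480, 486 and 418 in controls.

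Of 12 tested genes of bile acid sensing, uptake and synthesis, 1 rose and 1 fell, where 11.4% of all genes tested were called. FGF19, the hormone that shuts down bile acid synthesis, had 29.1, 22.1 and 72.3 CPM after FTO siRNA and 12.4, 12.1 and 11.4 CPM in controls (edgeR adjusted p = 0.0276; up to 0.113 without a control). KLB, the co-receptor for FGF19, had 80.4, 90.1 and 75.1 CPM after FTO siRNA and 165, 178 and 161 CPM in controls. It fell by 1.04 ± 0.14 (edgeR adjusted p = 0.00426) and was called in all 14 alternatives. A further list held xenobiotic receptors and organic ion carriers, with some stress regulators, enzymes and a nucleoside carrier. Among its 13 tested genes 1 fell and none rose, where 3.83% of all genes tested were called lower and 7.53% higher. The gene that fell was SLC47A1, the proton-coupled cation exporter. It had 10.2, 12.5 and 8.48 CPM after FTO siRNA and 23.6, 21.2 and 17.99 CPM in controls (adjusted p = 0.0181 by edgeR, up to 0.0946 without control 1 or control 2). NR1I2, the receptor that induces ABCB1 and ABCC2, averaged 7.004 CPM after FTO siRNA and 5.86 CPM in controls (adjusted p = 0.584).

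Subfamilies E and F act on translation: ABCE1 splits ribosomes after termination, ABCF1 aids initiation, and ABCF3 is the relative of yeast Gcn20, which takes part in sensing uncharged tRNA. ABCE1 had 217, 260.1 and 229 CPM after FTO siRNA, against 285, 288 and 275 CPM in controls. All FTO siRNA libraries lay below all controls, by a log2 fold change of -0.26 ± 0.14 (95% interval -0.58 to 0.05) that did not pass (adjusted p = 0.258 by edgeR). Of its words 11.6% occur in other genes, the most in AL513175.1, which had at most 9 counts in a library. These words leave out overlapping genes. ABCE1 overlaps ANAPC10 and OTUD4 on the other strand, and the higher counted of them had 9481 counts over the 6 libraries. The effect of this overlap on the ABCE1 counts was not tested. The 3 ABCF genes had the same library at either end. ABCF1 had 224, 202 and 136 CPM in FTO siRNA 1, 2 and 3, against 183, 182 and 186 CPM in controls 1, 2 and 3. ABCF2 had 189.8, 176 and 124 CPM after FTO siRNA, against 152, 153 and 168 CPM in controls. ABCF3 had 72.4, 69.6 and 42.2 CPM after FTO siRNA, against 67.6, 63.4 and 71.1 CPM in controls. In each, FTO siRNA 1 was the highest library of all and FTO siRNA 3 the lowest, and the controls lay between. Their log2 fold changes were 0.03 ± 0.19, 0.05 ± 0.18 and -0.14 ± 0.21 (adjusted p from 0.717 to 0.942 by edgeR), and the 95% intervals ran from -0.41 to 0.46, from -0.35 to 0.46 and from -0.61 to 0.34, in the order ABCF1, ABCF2, ABCF3. Without FTO siRNA 3 the log2 fold changes were 0.18, 0.19 and 0.05, with a change of sign for ABCF3, and none passed (adjusted p from 0.193 to 0.768 by edgeR). None of 13 tested partners in ribosome recycling and GCN control passed by edgeR. The closest was GCN1, the ribosome-bound activator that works with Gcn20 in yeast, at 197, 249 and 217 CPM after FTO siRNA and 285, 296 and 313 CPM in controls (log2 fold change -0.43 ± 0.15, adjusted p = 0.0957).

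Subfamily G moves sterols and drugs. ABCG2, a drug and urate exporter, had 25.8, 28.8 and 17.1 CPM in FTO siRNA libraries and 18.8, 22.8 and 24.4 CPM in controls, with overlap (log2 fold change 0.12 ± 0.22, adjusted p = 0.772 by edgeR; 0.29 without FTO siRNA 3). ABCG5 and ABCG8 form the heterodimer that secretes cholesterol into bile. ABCG8 averaged 1.81 ± 0.397 CPM after FTO siRNA and 1.801 ± 0.309 CPM in controls, and ABCG5 0.9101 ± 0.477 and 0.531 ± 0.167 CPM. Neither passed (adjusted p = 0.981 and 0.324 by edgeR). The log2 fold change of ABCG5 was 0.80 with all libraries and 0.25 without FTO siRNA 3, and that of ABCG8 0.01 and -0.14. Their GENCODE 29 annotations overlap on opposite strands, unlike the RefSeq starts used below, so the low counts of both are uncertain. ABCG1, the partner of ABCA1 in macrophage cholesterol export, had 0, 5 and 8 counts in FTO siRNA 1, 2 and 3 and 0, 1 and 0 in controls 1, 2 and 3. The ratio of the summed counts was 12.3, with a 95% counting interval of 1.85 to 522 that covers counting error only.

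ABCG5 and ABCG8 are transcribed away from each other, and the 131 bases between their starts (RefSeq, GRCh38.p14, chr2:43838840-43838970, shown 5′ to 3′ on the plus strand, towards ABCG8) belong to both promoters. The sequence is printed because these members share it. It held no E-box, GC box or TATA box, spelled as above, on either strand, which says only that these letters are not in the stretch.
ABCG5-ABCG8 interval: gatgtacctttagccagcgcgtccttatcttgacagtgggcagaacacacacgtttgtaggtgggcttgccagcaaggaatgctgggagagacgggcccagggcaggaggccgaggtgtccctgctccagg

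The members not tested had at most 25 counts in any library. They were ABCA8, ABCA9, ABCA13, ABCB5, ABCB11, ABCC8, ABCC9, ABCC12, ABCD2, ABCG1 and ABCG4. Among them ABCA13 had 15 counts after FTO siRNA and 1 in controls, a ratio of 14.2 (95% counting interval 2.18 to 597), and ABCC9, a regulatory subunit of potassium channels, 11 and 3 (3.47, interval 0.916 to 19.4). ABCC12 had 1 count in all, from FTO siRNA 1.

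Leaving out FTO siRNA 3 changed which members passed. Of 34 tested members 6 were then lower (ABCA1, ABCA2, ABCB10, ABCC4, ABCC6 and ABCD3) and 3 higher (ABCA4, ABCA10 and ABCC2), or 26.5%. The same fit called 14.1% of all genes lower and 15.9% higher, or 30.0% in all. Leaving out a control left no member called by edgeR. Of all genes, 2.11% were called without control 1 (1.51% higher, 0.602% lower), 2.52% without control 2 (1.84% higher, 0.679% lower) and 4.93% without control 3 (3.23% higher, 1.70% lower). ABCA4 was the only member called without FTO siRNA 1, where 6.96% of all genes were (4.86% higher, 2.10% lower), and with the replicate block, where 6.93% were (4.90% higher, 2.03% lower). ABCA3 and ABCA4 were called higher and none lower without FTO siRNA 2, where 9.0% of all genes were called (5.69% higher, 3.31% lower). Without a filter on low counts ABCA3, ABCA4 and ABCD3 were called, with 5.29% of all genes (3.56% higher, 1.73% lower). DESeq2 called ABCA3 and ABCA4 higher and ABCB10, ABCC6 and ABCD3 lower, with 12.1% of all genes (7.30% higher, 4.80% lower). FTO siRNA 3 was the highest of the 6 libraries for 13 tested members and the lowest for 8. FTO siRNA 1, by comparison, was the highest for 8 and the lowest for 8, and control 1 the highest for none and the lowest for 6.

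**Figure D5:**
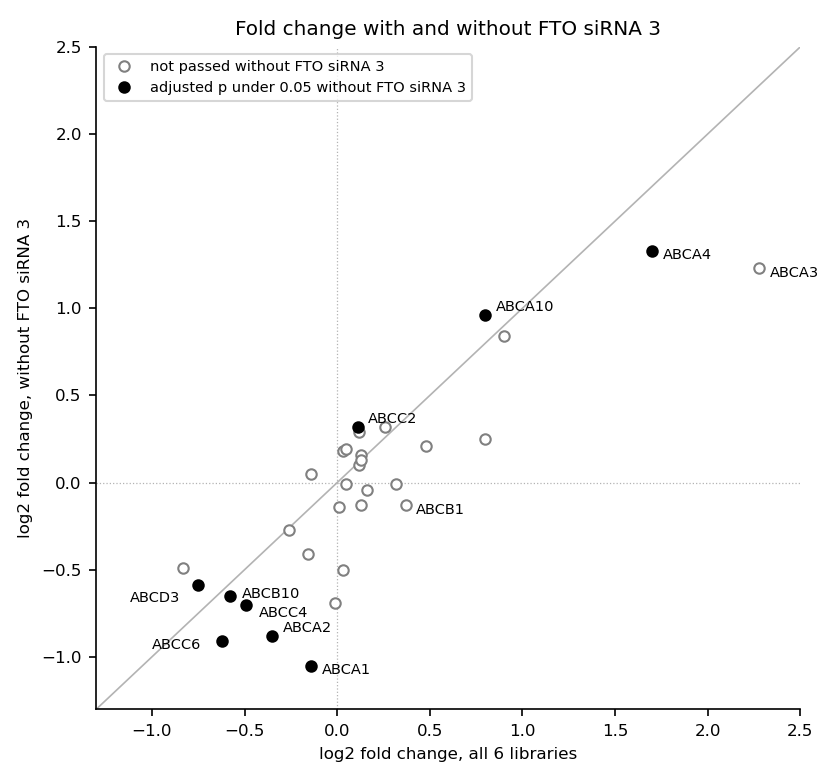
Log2 fold change, FTO siRNA over control siRNA, of the tested ABC genes reported here with all 6 libraries (horizontal axis) and without FTO siRNA 3 (vertical axis); the diagonal marks equal values. Filled points had an adjusted p under 0.05 without that library; ABCA1 lies at -1.05 without the library and -0.14 with it, and ABCA2 at -0.88 and -0.35.

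ABC proteins that carry other names, and their partners, were looked at beside the members, and of 7 tested 2 rose and 1 fell. Of all genes tested 7.53% were called higher and 3.83% lower. TAP1, a subunit of the peptide transporter of antigen presentation, had 6.197, 3.83 and 10.01 CPM after FTO siRNA, against 0.887, 1.58 and 1.21 CPM in controls. It rose by 2.44 ± 0.41 (edgeR adjusted p = 0.0102; 0.0616 without control 1). Its partner TAP2 had 7.56, 5.99 and 8.07 CPM after FTO siRNA and 4.44, 4.33 and 4.71 CPM in controls, without overlap, and did not pass (0.68 ± 0.21, adjusted p = 0.0707). TAPBP, which links the peptide transporter to class I molecules, rose by 0.69 ± 0.16 (adjusted p = 0.0326, lost under 6 of 14 alternatives). CFTR, the chloride channel of the family, had at most 4.29 CPM in a library and did not pass (adjusted p = 0.223 by edgeR). MMACHC, which takes cobalamin from the ABCD4 pathway, had 15.6, 16.6 and 12.6 CPM after FTO siRNA and 26.2, 22.9 and 22.9 CPM in controls and fell by 0.69 ± 0.17 (adjusted p = 0.0371, lost under 5 of 14 alternatives). Of 7 tested immune markers 5 were higher in the same comparison, and their part in the rise of TAP1 and TAPBP was not tested.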

How the data were processed

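The authors deposited raw counts of reads for each Ensembl gene, in 6 tables. Per the submitters' processing notes, the tools were TopHat2 2.0.11, TopHat and HTSeq and the builds hg19 and GRCh37, each listed without its step. No source used here gives counting settings or the use of strand, so overlapping and near-identical genes are uncertain. Identifiers were matched to GENCODE 29 without version (56753 of 60483; all 45 members). No gene coordinates of that release are printed; promoter windows are RefSeq's. Counts were filtered with filterByExpr (minimum count 10), scaled by TMM and tested with edgeR 4.0.16 in R 4.3.3 (glmQLFit, legacy=FALSE; glmQLFTest; group only; two-sided; Benjamini-Hochberg over 15025 genes). The standard error is the log2 fold change over the square root of F. CPM are TMM-scaled. Alternatives were other scalings and filters, DESeq2 1.42.0, limma-voom 3.58.1, a replicate block and each library left out. Steps were tested on simulated data. Shared sequence is the share of a transcript's 50-base words found in non-overlapping genes. Library pairs differed beyond sampling noise (chi-square over its degrees of freedom at least 9.35). Pairs of controls gave 9.35 to 17.2 and pairs across the groups 31.7 to 110. Within FTO siRNA, libraries 1 and 2 gave 22.9, 2 and 3 gave 94, and 1 and 3 gave 135.

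The members and lists were chosen with earlier results of these data known. Named genes were FTO, each called member, up to 4 members per subfamily by level and up to 4 per partner list by p. ABCA3, ABCA6, ABCA10, ABCA12, ABCB4, ABCB6, ABCB9, ABCC1, ABCC4, ABCC10 and ABCC11 among the tested members, the untested ones described, and the partner genes APOA1, NR1H3, NR1I2 and CFTR were named after their values were seen. So were the markers APOB, HNF4A, LYZ and TAGLN. No file holding protein sequences was used here. Some genes counted in the totals are not reported here by name.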

Additional observations from a re-analysis of the deposited data

How the results depend on the processing

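The count of ABC genes called higher was 1 and lower 1. With DESeq2 they were 2 and 3, without a filter on low counts 2 and 1, and with the replicate number as a block 1 and 0. With 1 library left out, the higher count ranged from 0 to 3 and the lower from 0 to 6, and the count of all genes from 330 to 4582, against 1707 with all libraries and 1041 with the block. The replicate numbers gave no sign of pairing the libraries: same-numbered deviations correlated at -0.138, -0.0643 and -0.248. Libraries with different numbers were not compared in this way, so these values cannot decide whether the libraries were paired. No other scaling, filter or test moved a count by more than 1.5 times. The fall of FTO lay between 1.63 and 2.29 (log2) and passed under every alternative run. ABCD3 kept its direction in all 14 alternatives, from -0.89 to -0.59, and ABCA4 from 1.33 to 1.85. ABCA1 ranged from -1.05 to 0.24; the cause was not tested. No called member changed sign. With merged exon length in place of the longest transcript, 9 members in place of 12 reached 10 CPM per kb in controls. Without a filter the median of all genes was 0.18 against 0.04 and of these members 0.03. For genes near the floor of 3 counts, depth limits what can be seen.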
